A study of Saccharomyces cerevisiae with 48 samples.

Results

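Genome replication was followed without over-expression of initiation factors in a pair of budding yeast strains that differ in which origins they lack. The *sml1∆ ars1008∆ ars1009∆* strain lacks a pair of origins beside *IME2* on Chr X, and the *sml1∆ ars816∆ ars818∆* strain lacks a pair beside *NDT80* on Chr VIII, so each culture retains the origins that the other has lost. The members are all post-release samples of these strains, 22 of the 48 samples in the series, with 11 samples from each strain taken at 5, 10, 15, 20, 25, 30, 35, 40, 45, 50 and 60 min after release. Both strains are haploid MATa cells of the W303 background (marker alleles rad5-535, can1-100, ade2-1, trp1-1 and ura3-1, with leu2-3, 112 and his3-11, 15) with *SML1*, the inhibitor of ribonucleotide reductase, replaced by *URA3*. ARS818 was replaced by a KanMX cassette. Cells were arrested in G1 with the mating pheromone alpha factor in raffinose, given galactose for 30 min and released at 30 °C into galactose medium, the condition that induces the 6 factors (*SSDDCS*) in the companion strains and that these strains share without carrying them. The other 22 post-release samples come from strains with the same deletions that do over-express Sld2, Sld3, Dpb11, Dbf4, Cdc45 and Sld7, with *SML1* replaced by a hygromycin resistance marker, and they are used below only as a second, separate pair of cultures.

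Eukaryotic chromosomes are copied from many origins, at which a helicase is loaded in G1 and activated in S-phase. In budding yeast origins are short sites bound by the origin recognition complex through the ARS consensus sequence, and they fire as a continuum from early to late. Centromeres are known to replicate early and chromosome ends late in this organism. A region without a nearby active origin is copied by forks that arrive from farther away.

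The deposited value is, for each 1-kb bin, the ratio of reads at a timepoint to reads in the matching G1 sample. The authors scaled it by the bulk value of the sample, a number from 1 to 2 read from flow cytometry. *Trep*, the time at which a bin reached a ratio of 1.5, was taken from a logistic curve through the timepoints of that bin. It was obtained for 11321 bins in each culture. With a single time course of each strain, differences between the cultures have no replicate check and no test was possible, and every SD below is over bins or loci. Read depth is unknown. As a check of the labels, the bin with ARS1008 had no value in any of the 11 files of the *ars1008∆ ars1009∆* culture and a value in all 11 of the other. The 10 bins around *IME2* replicated at 40.1 ± 3.39 min without ARS1008 and ARS1009 and at 21.8 ± 1.28 min with them. Those around *NDT80* replicated at 33.7 ± 4.72 min without ARS816 and ARS818 and at 23.9 ± 1.69 min with them. All counts of segments below leave out 60 kb either side of these genes.

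Of the deleted origins, ARS1009 (Chr X, 228552 to 229043 in the R64 assembly) holds 2 exact matches to the 11-base ARS consensus sequence, searched on both strands, and ARS1008 and ARS818 as annotated hold none. Among the 14 annotated origins within 5 kb of the earliest locus of a chromosome, 6 hold a match within the annotated interval. These are shown to place the baseline program on its sequence elements, each as 51 bases of the S288C reference read 5′ to 3′ along the strand of the match, which is in capitals, and for ARS1009 a single match of the pair is shown. ARS1009 (chrX:228791-228841, plus strand) is the deleted origin and the others are early in both cultures.
ARS1009: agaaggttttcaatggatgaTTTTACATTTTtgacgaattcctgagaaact
ARS719 (chrVII:485078-485128, minus strand): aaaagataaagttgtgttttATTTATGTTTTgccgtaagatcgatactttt
ARS1213 (chrXII:373295-373345, minus strand): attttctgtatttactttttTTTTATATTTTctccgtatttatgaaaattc
ARS209 (chrII:255051-255101, minus strand): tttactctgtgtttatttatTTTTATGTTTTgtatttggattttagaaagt
ARS606 (chrVI:167706-167756, minus strand): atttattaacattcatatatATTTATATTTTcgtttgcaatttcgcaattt
ARS1114 (chrXI:448166-448216, minus strand): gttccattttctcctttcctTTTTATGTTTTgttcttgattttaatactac
ARS1623 (chrXVI:634032-634082, minus strand): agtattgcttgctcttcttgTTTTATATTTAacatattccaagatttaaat
A window of 301 bases centered on the origin held a match at 34.1% of the 352 annotated origins, against 1.89% of windows of that length along the 16 chromosomes. The share was 40.8% for the 76 origins that were local minima of *Trep* in both cultures. These windows differ in length from the annotated intervals searched above, so the shares are not a background for the 6 of 14. A match is a description of the letters and not evidence of a bound site.

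By its bulk values, the *ars1008∆ ars1009∆* culture rose earlier and over a longer time. Its bulk value was 1.03 at 5 min, 1.12 at 10 min, 1.27 at 15 min, 1.45 at 20 min, 1.62 at 25 min, 1.75 at 30 min, 1.84 at 35 min, 1.90 at 40 min, 1.94 at 45 min, 1.96 at 50 min and 1.99 at 60 min. In the *ars816∆ ars818∆* culture it was 1.00, 1.01, 1.09, 1.29, 1.53, 1.72, 1.85, 1.92, 1.96, 1.98 and 1.99 at the same times. The first culture was therefore ahead until 30 min and level with or behind the second from 35 min on. By linear interpolation bulk replication (the bulk value less 1) passed 25% at 14.3 and 19.0 min, 50% at 21.4 and 24.4 min, 75% at 30.0 and 31.2 min, and 90% at 40.0 and 38.6 min in the *ars1008∆ ars1009∆* and *ars816∆ ars818∆* cultures, respectively.

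The same narrowing of the lead was seen in *Trep*. The ratios were already scaled by these bulk values, so *Trep* is not a separate line of evidence. The 10th percentile of bins was at 16.1 min in the *ars1008∆ ars1009∆* culture and 20.7 min in the *ars816∆ ars818∆* culture, the median at 22.3 and 25.2 min, and the 90th percentile at 29.3 and 31.7 min. The distance from the 10th to the 90th percentile was 13.2 and 11.0 min, a difference of 2.21 min. Along the genome ordered from early to late by its mean rank in the cultures, the lead shrank from 4.72 ± 1.69 min in the earliest 10% of bins to 2.63 ± 3.81 min in the latest 10%. Of 11315 bins fitted in both cultures, 82.9% were earlier in *ars1008∆ ars1009∆*, and the median difference over bins was -3.497 min. The share of bins at or above a ratio of 1.5 at 20 min was 41.0% against 6.03%, and at 35 min it was 99.1% against 97.4%. Individual bins also took longer to rise, with a median width parameter of the logistic curve of 6.24 min against 4.95 min.

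The cultures also differed in how strongly early and late bins parted at a given bulk value. For this comparison the earliest and latest 10% of bins of each culture were set from *Trep* in the other culture. At 10 min, with a bulk value of 1.12, the earliest bins of the *ars1008∆ ars1009∆* culture had a mean ratio of 1.13 ± 0.0900 and the latest bins 1.12 ± 0.0762, a gap of 0.00539. The *ars816∆ ars818∆* culture had a gap of 0.0570 at 15 min, when its bulk value was 1.09. Near a bulk value of 1.3 the gaps were alike, 0.222 at 15 min (bulk value 1.27) and 0.226 at 20 min (bulk value 1.29). They then parted in the other direction, to 0.584 at 20 min in *ars1008∆ ars1009∆* and 0.432 at 25 min in *ars816∆ ars818∆*, with a highest gap in the latter of 0.488 at 30 min.

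The latest bins of the *ars1008∆ ars1009∆* culture did not rise steadily. Their mean ratio went from 1.12 at 10 min to 1.22 at 15 min, down to 1.20 at 20 min and up to 1.34 at 25 min. Between 15 and 20 min 62.5% of the 1131 latest bins fell, against 0.530% of the 1132 earliest bins and 17.3% of all bins. In the *ars816∆ ars818∆* culture 1.68% of the latest bins fell over this interval, an earlier stage with bulk values of 1.09 to 1.29. From 20 to 25 min, with bulk values of 1.29 to 1.53, 8.49% of its latest bins fell. In the *SSDDCS* cultures the share from 15 to 20 min was 48.9% with the *ars1008∆ ars1009∆* deletion, where the mean change was 0.0114, and 10.95% with *ars816∆ ars818∆*. A single bulk value scales all bins of a sample, so the ratios at 10 and 15 min in late regions rest on it. Whether the bulk values of the early samples or the DNA content of the cells gives this pattern was not tested. With the samples at 5 to 15 min scaled instead so that the latest bins had a mean ratio of 1, an alternative chosen after the data were examined, the difference in median *Trep* was -2.03 min in place of -2.99 min and the difference in spread 1.16 min in place of 2.21 min. The early bins differed at the other end of S-phase. In the *ars816∆ ars818∆* culture they reached a mean ratio of 2.07 ± 0.131 at 40 min, above the nominal end point of 2, whereas in *ars1008∆ ars1009∆* they stood at 1.95 ± 0.131.

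**Figure D1:**
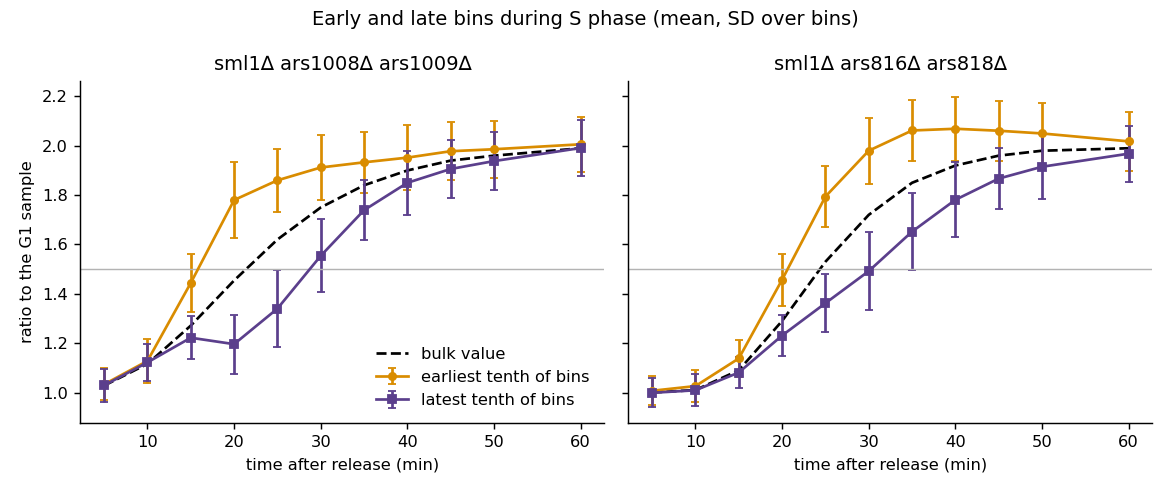
Mean ratio to the G1 sample (y axis, SD over bins) against time after release in min (x axis) for the earliest 10% of bins (circles) and latest 10% of bins (squares), each set from the other culture, with the bulk value as a dashed line. In *ars1008∆ ars1009∆* the latest bins dip from 1.22 at 15 min to 1.20 at 20 min, and in *ars816∆ ars818∆* they rise at every step while the earliest bins pass 2.

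Around origins the slope of *Trep* differed less between the cultures than among origins. *Trep* was averaged by distance from 127 origins outside the target regions, chosen as local minima in both *SSDDCS* cultures and therefore not on the values compared. From within 1 kb of the origin to 15 to 16 kb away, mean *Trep* went from 18.9 ± 3.89 to 21.6 ± 3.69 min (SD over origins) in *ars1008∆ ars1009∆* and from 22.4 ± 2.85 to 25.3 ± 3.01 min in *ars816∆ ars818∆*. The slope between 3 and 15 kb had a median of 0.186 min per kb (25th to 75th percentile 0.0548 to 0.313) in the first and 0.170 min per kb (0.0905 to 0.277) in the second, and was steeper in *ars1008∆ ars1009∆* at 66 of the 127 origins. The SD of *Trep* over origins, 3.89 against 2.85 min, was the larger difference. These slopes mix cells in which the origin fired with cells in which it was passively copied and are not fork speeds.

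The order of chromosomes was shared at its extremes. Chr III replicated first in both cultures, with a median *Trep* of 19.3 and 22.9 min in *ars1008∆ ars1009∆* and *ars816∆ ars818∆*, and was followed in both by Chr V (20.5 and 23.9 min), Chr IX (21.1 and 24.1 min) and Chr I (21.7 and 24.3 min). Chr XIV (23.7 and 26.4 min) and Chr IV (23.9 and 26.5 min) came last in both. Chr VIII, which holds the ARS816 and ARS818 sites, ranked 12 in *ars1008∆ ars1009∆* and 14 in *ars816∆ ars818∆*, and Chr X ranked 11 and 6. Centered on the median difference of all bins, chromosome medians lay between -0.695 min on Chr III and 0.404 min on Chr XIV. All are smaller than the 25th to 75th percentile range of bins within a chromosome (-2.03 to 1.56 min on Chr III). Over the 11315 bins, which share a library and overlap in their forks, Spearman's rho between the cultures was 0.721.

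The earliest locus of each chromosome, by the mean rank of *Trep* over 5 bins in both cultures, lay at 13.3 to 15.6 min in *ars1008∆ ars1009∆* and 17.8 to 20.3 min in *ars816∆ ars818∆*, within the earliest 5.47% of positions in either. Of the 16, 14 had their center within 5 kb of an annotated origin, against 26.3% of all bins, and 6 lay within 25 kb of the centromere, against 6.76% of all bins. Since the loci were picked on these profiles, the counts describe them only.

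The loci near centromeres were as follows. On Chr I (168001 to 173000) the earliest locus was at *KIN3*, a protein kinase gene, 19.0 kb from the centromere, with *Trep* of 14.2 ± 0.483 and 18.6 ± 0.599 min in *ars1008∆ ars1009∆* and *ars816∆ ars818∆*. On Chr II (254001 to 259000) it was at *HHT1*, a histone H3 gene beside ARS209, at 13.96 ± 1.49 and 19.4 ± 0.997 min. On Chr XI (445001 to 450000) it was at *ECM9* beside ARS1114, only 7.31 kb from the centromere, at 14.4 ± 0.979 and 19.8 ± 1.26 min. The other 3 were beside ARS606 on Chr VI (167001 to 172000), ARS719 on Chr VII (482001 to 487000) and ARS806 on Chr VIII (116001 to 121000, at *STP2*, a transcription factor of amino acid permease genes). All 6 were at 15.2 min or earlier in the first culture and 19.8 min or earlier in the second.

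Another 4 were within 50 kb of a chromosome end, where late replication is the usual state, against 10.7% of all bins. Of the 16 loci, that on Chr III at ARS305 (37001 to 42000), 39.5 kb from the left end, had the lowest *Trep* in both cultures, with *Trep* of 13.3 ± 1.13 and 17.8 ± 0.949 min. On Chr XIII (897001 to 902000) the locus was at *TGL3*, a triacylglycerol lipase gene, beside ARS1332 and 24.9 kb from the right end, at 13.6 ± 1.53 and 19.1 ± 1.03 min. On Chr XV (1051001 to 1056000) it was at *RDR1*, a repressor of multidrug resistance genes, at 13.9 ± 0.763 and 19.0 ± 0.678 min, with the nearest annotated origin 71.8 kb away. On Chr IX (410001 to 415000) it was at *DCG1* beside ARS922, at 15.1 ± 1.12 and 19.3 ± 1.83 min. These 4 loci, picked as the earliest of their chromosomes, were early in both cultures. That does not extend to all DNA nearer the ends, since bins at ARS300 (Chr III, 989 to 1068) were at 27.7 ± 1.81 and 35.7 ± 0.376 min.

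The remaining 6 lay along chromosome arms. They were at *TPI1*, the glycolytic triose phosphate isomerase gene (Chr IV, 553001 to 558000, ARS418), *ECM10* (Chr V, 92001 to 97000, ARS508), *MET5*, a sulfite reductase subunit (Chr X, 681001 to 686000, ARS1021), *YLR112W* (Chr XII, 369001 to 374000, ARS1213), a tRNA gene next to a Ty2 element (Chr XIV, 559001 to 564000, ARS1422) and *NTO1*, a subunit of the NuA3 histone acetyltransferase (Chr XVI, 629001 to 634000, ARS1623). *NTO1* was the latest of the 16, at 15.6 ± 1.15 and 20.3 ± 1.45 min. All 16 loci were picked as earliest on these profiles. Their ratio at 15 min was 1.49 to 1.66 in *ars1008∆ ars1009∆* and 1.14 to 1.26 in *ars816∆ ars818∆*. Genome medians at that time were 1.26 and 1.09, so the shift was not particular to these loci. At 20 min the loci of the second culture had 1.45 to 1.66, close to where those of the first had been 5 min before.

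The latest loci, taken outside the outer 20 kb of each chromosome and the ribosomal DNA, lay mostly between origins. Only 1 of 16 had its center within 5 kb of an annotated origin, against 26.3% of all bins. None lay within 25 kb of the centromere, against 6.76% of all bins. There were 3 within 50 kb of an end, against 8.21% of the bins outside the outer 20 kb. These loci too were picked on the profiles described, so the counts describe them only. Outside the target regions, 14 chromosomes had their latest locus at 28.5 to 34.4 min in *ars1008∆ ars1009∆* and 28.7 to 38.6 min in *ars816∆ ars818∆*. The time from the earliest to the latest locus of a chromosome had a median of 18.5 min (range 13.3 to 20.3) in the first and 15.0 min (range 10.0 to 19.6) in the second.

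The latest of all in *ars816∆ ars818∆* was on Chr XV (812001 to 817000) at *GCD1*, a subunit of the translation initiation factor eIF2B, at 38.6 ± 4.59 min against 34.0 ± 2.72 min in *ars1008∆ ars1009∆*. Outside the target regions the latest of all in *ars1008∆ ars1009∆* was on Chr VII (1029001 to 1034000) at *YTA7*, an ATPase of chromatin, at 34.4 ± 3.23 min against 35.6 ± 2.15 min. Chr IV (834001 to 839000, *CCT6*, a chaperonin subunit) was at 33.7 ± 3.71 and 36.6 ± 3.09 min, Chr XII (857001 to 862000, *SSQ1*, a mitochondrial chaperone) at 33.6 ± 2.303 and 36.6 ± 4.41 min, and Chr XIII (721001 to 726000, *TAF7*, a TFIID subunit) at 33.9 ± 4.04 and 35.3 ± 3.62 min. These 5 loci differed by less than their SD over bins in *ars1008∆ ars1009∆*, and by less than the SD of *GCD1* in *ars816∆ ars818∆*.

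The remaining latest loci were at *TDP1* (Chr II), *ACA1* (Chr V), *NOT3* (Chr IX), *UTP30* (Chr XI), *ELA1* (Chr XIV) and *MLC2* (Chr XVI), all later in *ars816∆ ars818∆* by their uncentered *Trep*, and at *FRT2* (Chr I) and *PRE4* (Chr VI). The last pair were later in *ars1008∆ ars1009∆* although that culture was ahead in general, with *FRT2* at 30.2 ± 2.52 against 28.7 ± 2.58 min and *PRE4*, a proteasome subunit gene, at 33.2 ± 3.07 against 30.8 ± 3.57 min. On Chr III (294001 to 299000) the latest locus overlapped the annotated silent mating locus HMR and held ARS318, at 31.01 ± 1.58 and 31.5 ± 2.61 min. On Chr X it was *DPB11* (261001 to 266000), which encodes 1 of the 6 limiting factors, inside the target region of the *ars1008∆ ars1009∆* deletion, at 35.2 ± 2.14 and 36.1 ± 1.78 min. On Chr VIII it was *TOM71* (341001 to 346000), inside the *NDT80* region, at 29.4 ± 2.79 min in *ars1008∆ ars1009∆* and 34.0 ± 2.15 min where ARS816 and ARS818 were deleted.

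**Figure D2:**
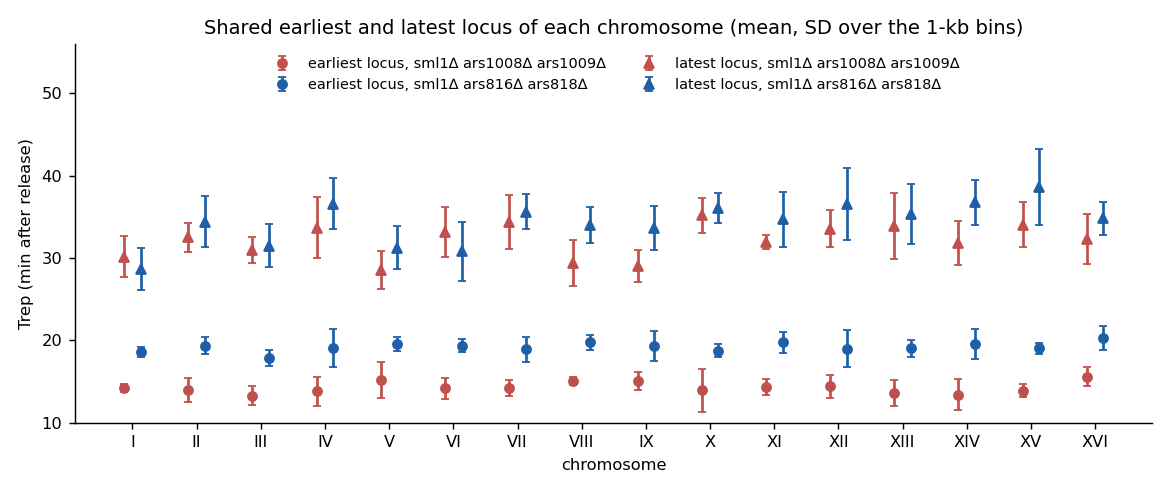
*Trep* in min after release (y axis, mean and SD over the 1-kb bins of the locus) of the shared earliest (circles) and latest (triangles) locus of each chromosome (x axis) in *ars1008∆ ars1009∆* (red) and *ars816∆ ars818∆* (blue). Earliest loci lie at 13.3 to 15.6 and 17.8 to 20.3 min, and on Chr I and Chr VI the latest locus is later in *ars1008∆ ars1009∆*.

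When each culture was taken alone, the single earliest position agreed less well than the order. It lay within 10 kb in both cultures on 5 of 16 chromosomes (Chr I, III, IV, XI and XII) and the latest position on 6 (Chr IV, IX, XI, XII, XIII and XV). On Chr XV the earliest positions were 777 kb apart and on Chr XIII 758 kb apart. The count for earliest positions was 9 when the first crossing of 1.5 replaced the fitted curve, and the count for latest positions was then 11. Of 337 annotated origins with values, 134 were local minima of *Trep* in *ars1008∆ ars1009∆*, 128 in *ars816∆ ars818∆* and 76 in both, which is 56.7% and 59.4% of the respective sets. The shared 76 had a median *Trep* of 16.5 and 21.3 min. After centering, 60 of them differed by at most 2 min between the cultures, around a median of -0.800 min. The 76 were picked on these profiles and no such share over all 337 origins is at hand, so the count describes them only. Of the 58 found in *ars1008∆ ars1009∆* alone, 43 were minima in the *SSDDCS* culture with that deletion, as were 38 of the 52 found in *ars816∆ ars818∆* alone in theirs (74.1% and 73.1%). Of all 337 origins, 61.7% and 54.0% were minima in these *SSDDCS* cultures. The minima are of *Trep* within 3 kb of an annotated position, and the 128 and the 52 include the position of ARS818, which that strain lacks.

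Outside the target regions the profiles parted in 24 segments. A segment is a run of at least 5 positions at which the difference in *Trep*, less the genome-wide median difference and averaged over 11 bins, exceeded 3 min. There were 21 segments (193 bins) later in *ars1008∆ ars1009∆* and 3 (28 bins) later in *ars816∆ ars818∆*. At the level of single positions, 284 of 11062 (2.57%) were over 3 min in the first direction and 40 (0.362%) in the second. These are descriptions of the extremes of a distribution with an SD of 1.34 min and no replicate.

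On this centered scale, the segments later in *ars1008∆ ars1009∆* were mainly late-replicating DNA near chromosome ends. Their largest position was within 50 kb of an end in 16 of 21, against 10.7% of the positions examined, 20 of 21 had a mean rank in the later part of the genome, and 9 held an annotated origin. The widest differences were at *PDR18*, an ABC transporter gene (Chr XIV, 761001 to 766000), with *Trep* of 29.1 ± 1.75 min in *ars1008∆ ars1009∆* and 25.0 ± 1.70 min in *ars816∆ ars818∆* and a centered difference of 7.54 ± 3.32 min, and at *PAU13*, of the seripauperin family of chromosome ends (Chr VIII, 6001 to 19000, with ARS801 and ARS802 inside), at 32.7 ± 2.33 and 29.8 ± 1.91 min and 6.26 ± 2.96 min. At *PAU13* the ratio in *ars1008∆ ars1009∆* was 1.20 at 15 min, 1.16 at 20 min and 1.19 at 25 min, while it rose from 1.10 to 1.29 and 1.38 in *ars816∆ ars818∆*. Its ratio thus went from above to below that of the other culture in that interval. The genome medians at 15 min were 1.26 and 1.09, so relative to its own genome the segment was already behind at that time.

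The others named here were *SAP155*, a partner of the Sit4 phosphatase (Chr VI, 231001 to 237000), at 5.82 ± 5.62 min, *AAD3*, a putative aryl alcohol dehydrogenase (Chr III, 309001 to 315000), at 5.71 ± 4.67 min, and *AAD10*, of the same family (Chr X, 723001 to 729000), at 5.09 ± 7.13 min. *TAF7* (Chr XIII, 718001 to 727000) was at 4.896 ± 5.48 min, the protein kinase gene *KIN82* (Chr III, 268001 to 276000, with ARS316) at 4.75 ± 4.97 min and *YJL213W* (Chr X, 21001 to 40000, with ARS1004) at 4.70 ± 2.98 min. Of these 6, *AAD10*, *TAF7* and *KIN82* did not exceed their SD over bins. *TAF7*, 201 kb from an end, was also the shared latest locus of its chromosome. Further segments included HMR (Chr III, 287001 to 299000) at 3.70 ± 4.77 min and 1 that ran to the annotated right telomere of Chr VI (257001 to 270000, with ARS610) at 3.59 ± 3.53 min.

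The direction of the segments depended on the centering. Since the lead of *ars1008∆ ars1009∆* was smaller in late bins, subtraction of a single median leaves such bins with positive values. With the *ars816∆ ars818∆* values mapped onto the quantiles of *ars1008∆ ars1009∆*, 8 segments later in *ars1008∆ ars1009∆* and 6 later in *ars816∆ ars818∆* were called. The mean over the bins of each named segment remained past 3 min in its direction, with *PDR18* at 7.11 min, *PAU13* at 5.16 min and *TAF7* at 3.31 min. However, *PDR18*, *SAP155*, *AAD10*, *TAF7* and *KIN82* were not among the segments called with the map. Relative to the rest of the genome, chromosome ends as a class were later in *ars1008∆ ars1009∆*, by an amount that depended on the scale. The 295 bins within 20 kb of an end had a median *Trep* of 25.05 min in *ars1008∆ ars1009∆* and 26.35 min in *ars816∆ ars818∆*. They were thus not later without centering. Their centered median difference was 1.63 min (25th to 75th percentile -1.28 to 4.43), and it was 1.18 min after the quantile map. With each bin scaled to its level at 5 and 60 min the median was 0.566 min, and in the *SSDDCS* pair it was 0.346 min over 297 bins. Of 32 outer 50-kb regions, 25 were later in *ars1008∆ ars1009∆* by the centered difference and 26 after the map. The *SSDDCS* pair had 20 by the centered difference. In the *sml1∆* pair 21 were over 1 min later, led by the right end of Chr III (3.28 ± 4.46 min) and the left end of Chr X (3.16 ± 3.90 min). The right end of Chr XIII went the other way, by -1.35 ± 2.93 min, the 1 region past 1 min in that direction. By uncentered mean *Trep* each of these outer regions was earlier in *ars1008∆ ars1009∆*, including the right end of Chr III at 27.4 against 27.6 min. Bins within 10 kb of a centromere had a median *Trep* of 16.1 and 20.8 min and a centered difference of -1.02 min, which was 0.0673 min after the map.

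Levels before and after most of S-phase moved with the segments. In all 24, the ratio over the genome median at 5 and 60 min was lower in the culture in which the segment was later. For the segments later in *ars1008∆ ars1009∆* this level differed by -0.0698 to -0.0173 (*ars1008∆ ars1009∆* minus *ars816∆ ars818∆*), where the central 90% of all bins lay between -0.0367 and 0.0394. These samples also enter the fits. Without the sample at 5 or at 60 min, *PDR18* was at 7.15 and 7.25 min and *PAU13* at 6.26 and 6.19 min. When each bin was divided by its level at 5 and 60 min, an alternative chosen after the data were examined, 5 segments later in *ars1008∆ ars1009∆* and 1 later in *ars816∆ ars818∆* were called. Only 2 of these 6 overlapped a segment found without this scaling. None of the 5 later in *ars1008∆ ars1009∆* lay within 50 kb of an end, so the location near ends was not kept. All 21 segments later in *ars1008∆ ars1009∆* kept their direction but 3 stayed over 3 min, with *PDR18* at 2.11 min, *PAU13* at 2.57 min and *YJL213W* at 1.38 min. By contrast the *IME2* difference of 21.8 ± 2.71 min was 20.96 ± 2.63 min on the same scale. Whether copy number, the G1 sample or replication sets these levels was not tested.

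The *SSDDCS* pair, which carries the same deletions in other cultures, had few positions past 3 min anywhere, with 0.533% of 11066 later in its *ars1008∆ ars1009∆* culture and 0.0723% later in the other, in 3 and 0 segments. None of the 21 was among them. Of the 21, 14 had the same direction there, where 52.9% of all positions were above 0, and their centered differences there lay between -1.35 and 2.83 min with a median of 0.368 min. *PDR18* was at -0.356 ± 1.76 min and *PAU13* at 1.41 ± 1.87 min. The highest was *DRS2*, an aminophospholipid translocase gene (Chr I, 91001 to 98000), at 4.16 ± 2.99 min without and 2.83 ± 2.46 min with *SSDDCS*.

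**Figure D3:**
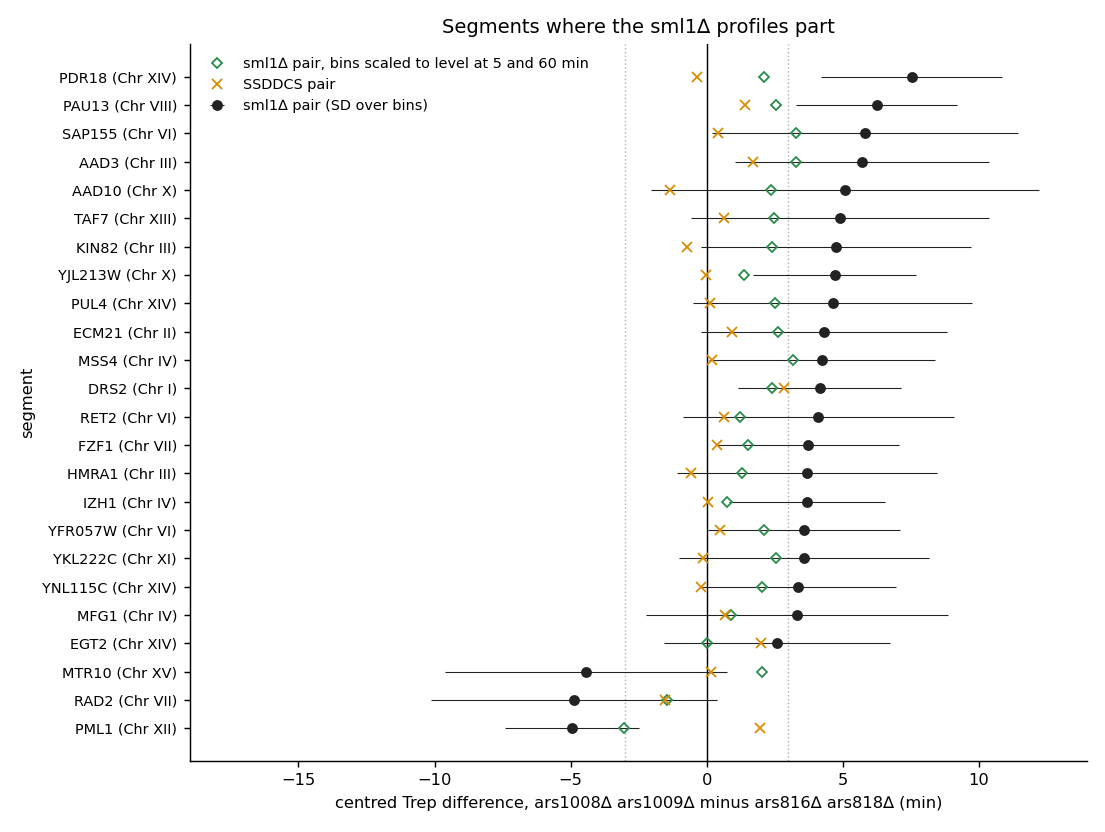
Centered difference in *Trep* (x axis, min, positive where *ars1008∆ ars1009∆* is later) of the 24 segments (y axis, by gene and chromosome) in the *sml1∆* pair (black, SD over bins), in the same pair after each bin was scaled to its level at 5 and 60 min (green diamonds) and in the *SSDDCS* pair (orange crosses). The dotted lines mark 3 min, and *PML1* is the segment later in *ars816∆ ars818∆* that stays past it after scaling, at -3.04 min.

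The 3 segments later in *ars816∆ ars818∆* held no annotated origin and lay at least 80.4 kb from an end. They were at *PML1*, a subunit of the pre-mRNA retention and splicing complex (Chr XII, 171001 to 184000), *RAD2*, the endonuclease of nucleotide excision repair (Chr VII, 1007001 to 1015000), and *MTR10*, a nuclear import receptor (Chr XV, 630001 to 637000). The *PML1* segment was at 24.7 ± 2.87 min in *ars1008∆ ars1009∆* and 33.1 ± 1.71 min in *ars816∆ ars818∆*, a centered difference of -4.95 ± 2.45 min (-6.14 min after the quantile map). *RAD2* was at 21.4 ± 2.53 and 29.8 ± 5.43 min, with -4.89 ± 5.25 min centered, and *MTR10* at 24.4 ± 3.19 and 32.3 ± 2.43 min, with -4.43 ± 5.20 min centered. Only *PML1* exceeded its SD over bins.

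The time courses of the 3 were as follows. At *PML1* the mean ratio in *ars1008∆ ars1009∆* was 1.05 at 5 min, 1.09 at 10 min, 1.11 at 15 min, 1.24 at 20 min, 1.61 at 25 min, 1.79 at 30 min, 1.82 at 35 min, 1.92 at 40 min, 1.96 at 45 and 50 min and 2.005 at 60 min. In *ars816∆ ars818∆* it was 0.987, 0.999, 1.05, 1.14, 1.24, 1.38, 1.57, 1.74, 1.87, 1.92 and 1.93. The gap was widest at 25 and 30 min. At *RAD2* the ratio was 1.06 against 0.955 at 5 min and 2.02 against 1.91 at 60 min, and at *MTR10* it was 1.10 against 0.954 and 2.12 against 1.89. At *MTR10* they came close at 20 min, with 1.27 against 1.24, after a fall from 1.35 at 15 min in *ars1008∆ ars1009∆*. After each bin was scaled to its level at 5 and 60 min the differences were -3.04 min for *PML1*, -1.44 min for *RAD2* and 2.04 min for *MTR10*, so the last turned in direction. By the first crossing of 1.5, *RAD2* was at -2.78 min and *MTR10* at -1.54 min. The *RAD2* segment also holds ETC4, an annotated TFIIIC-bound site that does not recruit RNA polymerase III.

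**Figure D4:**
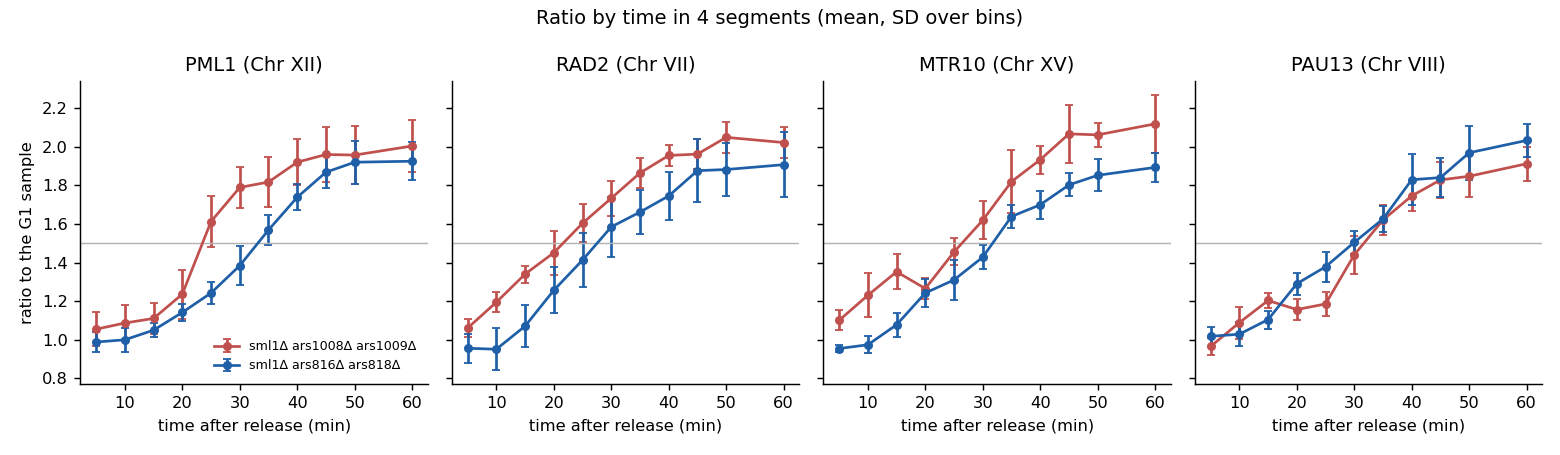
Mean ratio to the G1 sample (y axis, SD over bins) against time after release in min (x axis) in the segments at *PML1*, *RAD2*, *MTR10* and *PAU13* for *ars1008∆ ars1009∆* (red) and *ars816∆ ars818∆* (blue). At *PML1* the ratio is 1.61 against 1.24 at 25 min, and at *MTR10* it is 1.10 against 0.954 at 5 min and 2.12 against 1.89 at 60 min.

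At *PML1* the *ars1008∆ ars1009∆* culture stood apart from the other 3. At 25 min the *SSDDCS* cultures had a mean ratio of 1.26 (*ars1008∆ ars1009∆*) and 1.26 (*ars816∆ ars818∆*), close to the 1.24 of *ars816∆ ars818∆* without *SSDDCS* and below 1.61, although both were ahead in bulk. Their *Trep* in the segment was 28.4 ± 2.99 and 31.1 ± 2.34 min, so the segment was later than in *sml1∆ ars1008∆ ars1009∆* despite the earlier S-phase, and the centered difference of that pair was 1.98 ± 3.23 min, opposite in sign. In all 4 cultures *Trep* climbed at the left edge of the segment. The nearest annotated origin, ARS1209, is 20.6 kb from the position of largest difference, and the centromere 26.6 kb. Over 5 bins *Trep* went from 18.6 min at 5 kb before the segment to 24.3 min in its first bin in *ars1008∆ ars1009∆*, a smaller climb than from 21.1 to 32.3 min in *ars816∆ ars818∆*, or from 14.8 to 26.2 min and 18.6 to 28.2 min in the *SSDDCS* cultures. *RAD2* was at -1.53 ± 2.02 min and *MTR10* at 0.159 ± 3.13 min in the *SSDDCS* pair.

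**Figure D5:**
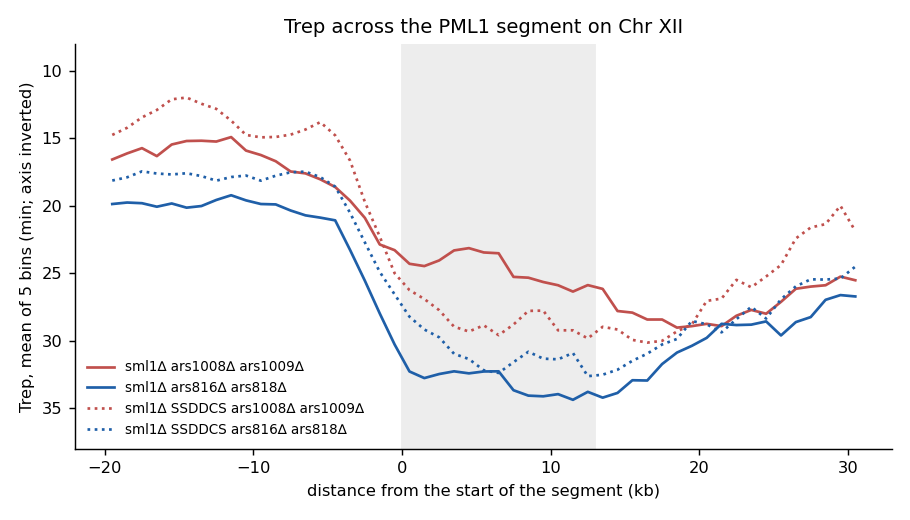
*Trep* averaged over 5 bins (y axis, min, inverted so that early is up) against distance in kb from the start of the *PML1* segment (x axis, segment shaded) in the *sml1∆* (solid) and *SSDDCS* (dotted) cultures with ARS1008 and ARS1009 (red) or ARS816 and ARS818 (blue) deleted. All profiles fall at the left edge, and *sml1∆ ars1008∆ ars1009∆* falls least, from 18.6 to 24.3 min.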

How the data were processed

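Per the submitters' processing notes, the authors used the sacCer3 build, Bowtie2 2.3.4, SAMtools 1.7.2 and bedtools 2.26.0. The methods name other versions of Bowtie2 and SAMtools. They deposited, for each post-release sample, a ratio of timepoint to G1 reads per 1-kb bin, already multiplied by a bulk ratio from flow cytometry, which stands in the same files. Every bin of a sample shifts with an error in its bulk value. The files hold no counts, so depth and counting error are unknown, and precision is given as the SD over bins.

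Groups came from sample titles. Bins with at least 6 timepoints were fitted by least squares with a logistic curve running from 1 to 2 (numpy 2.4.6, pandas 2.3.3, Python 3.11.15). Differences are *ars1008∆ ars1009∆* minus *ars816∆ ars818∆*, less the median over bins. The segment search was tested on simulated data. Origins, genes and sequences are from the R64 RefSeq assembly, the same build. The text names the earliest and latest locus of each chromosome, up to 8 segments of largest difference per direction, the deleted origins, *IME2*, *NDT80* and features inside segments. *DRS2* and the genes of the scaled segments fall outside that rule and were named after their values were seen. The members and lists were chosen with earlier results of these data known. Alternatives were the curve, the centering, the bulk values, windows, thresholds and each timepoint left out, with the scaling of early samples and of bins added after the data were examined. G1 samples have no file here and were not analysed.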

Additional observations from a re-analysis of the deposited data

Results flagged for a closer look

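A pair of segments moved in opposite directions by more than 1 min with and without *SSDDCS*. At *PML1* (Chr XII) the centered difference was -4.95 ± 2.45 min in the *sml1∆* pair. In the *SSDDCS* pair it was 1.98 ± 3.23 min, within its SD over bins. At *AAD10* (Chr X) it was 5.09 min and -1.35 min, within the SD over bins of either pair. Each pair is a single culture against a single culture, and the difference between pairs was not tested.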

How the results depend on the processing

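No paired analysis was possible because the cultures share only the replicate number 1 and no result comes from a test. The difference in median *Trep* (-2.99 min) was -3.09 to -2.79 min when 1 timepoint was left out, kept its sign under every alternative run and was -2.03 min with the samples at 5 to 15 min scaled to the latest bins. The difference in spread (2.21 min) was 1.38 to 2.54 min without 1 timepoint and 1.16 min with that scaling. Earliest positions within 10 kb in both cultures (5 chromosomes) numbered 3 to 8 without 1 timepoint (3 without 15 min, 8 without 10 min), 9 by first crossing and 3 within 5 kb. Latest positions (6) numbered 6 to 9 without 1 timepoint and 11 both with a free upper asymptote and by first crossing. Shared local minima at origins (76) numbered 64 to 81 without 1 timepoint and 137 within 5 kb of the origin. Segments later in *ars1008∆ ars1009∆* (21) numbered 14 to 30 without 1 timepoint, 34 by first crossing, 8 with the quantile map, 0 uncentered, 40 and 12 with windows of 5 and 21 bins, 73 and 1 at thresholds of 2 and 5 min, and 5 with bins scaled to their level at 5 and 60 min. Segments later in *ars816∆ ars818∆* (3) numbered 3 to 8 without 1 timepoint (6 without 15 min, 8 without 20 min, 7 without 25 min), 1 with a free asymptote, 6, 296, 8, 1, 28 and 0 in the same order from the quantile map on, and 1 with bins scaled to their level. The 11 named segments stayed over 3 min in their direction in 11 cases without any 1 timepoint and with the quantile map, in 10 with windows of 5 bins (*TAF7* at 2.07 min), in 9 with a free asymptote (*RAD2* at -2.86 min and *MTR10* at -2.36 min), in 8 by first crossing (*AAD10* at 2.63 min, *RAD2* at -2.78 min and *MTR10* at -1.54 min), in 4 uncentered, in 4 with windows of 21 bins and in 3 with bins scaled to their level, where *MTR10* turned to 2.04 min. The values of named segments are means over bins chosen in the main run and not new calls. Segment numbers thus depend on the threshold and window, and the absence of counts and of replicate cultures limits all of them.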

Other observations

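Some bins had values in certain strains only. The bin that holds the start of an annotated Ty2 element on Chr XV (970001 to 971000) and the bin that holds an end of a Ty1 element on Chr XIV (102001 to 103000) had a value in 0 of 11 files of *sml1∆ ars1008∆ ars1009∆* and in 11 of 11 files of each of the other 3 strains. The bin that holds the start of a Ty3 element on Chr IX (205001 to 206000) had a value in 10 files of *sml1∆ ars816∆ ars818∆* and in 0 files of the other strains. The segments called after each bin was scaled to its level at 5 and 60 min were at *MSC2*, *EAF1* and *ESC2* on Chr IV, *GID10* on Chr VII, *RPO31* on Chr XV and *PML1*, with window differences of 4.58, 3.74, 4.004, 3.29, 4.27 and -3.53 min, respectively.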
